A study of Mus musculus with 13 samples.

Results

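The MYC, MAX and MXD network was followed through 13 mouse NUT carcinoma (mNC) tumors by RNA sequencing. Its members were taken by name: the 3 MYC genes Myc, Mycn and Mycl, their partner Max, the MXD genes Mxd1, Mxd3, Mxd4 and Mxi1, and the MAX partners Mnt and Mga. These 10 genes are among 55332 genes with values in the table of estimated counts, and all 10 were found under their mouse symbols. The study deleted the transcription factor gene Sox2 in mice that form NUT carcinoma in the oral mucosa or in the pancreas. RNA of each tumor was sequenced as 1 library. All 13 tumors carried NCT+/-, an allele in which Cre recombinase induces a translocation that makes a Nutm1 fusion gene. The 4 oral wild-type (WT) tumors were KRT14-Cre; NCT+/-, and the 2 oral Sox2 knockout (KO) tumors were labelled KRT4Cre; NCT+/-; Sox2fl/fl, whereas the methods of the study name KRT14-Cre as the oral driver. The 4 pancreatic WT tumors were Pdx1-Cre; NCT+/-, and the 3 pancreatic KO tumors were Pdx1-Cre; NCT+/-; Sox2fl; fl. Cre acted only in cells that express the driver's promoter, so Sox2 was deleted in the lineage that forms the tumor and not in the other cells of the host, and mouse ages were not given in the labels. The KO and WT tumors of a tissue share the fusion and the driver as the methods name it, and differ in the Sox2 allele.

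MYC proteins bind DNA as dimers with MAX at E-boxes, whose core sequence is CACGTG, and recruit acetyltransferases and elongation factors that raise transcription of genes for ribosome biogenesis, metabolism and cell cycle entry. MXD1, MXD3, MXD4, MXI1 and MNT compete for MAX, bind the same sequence and recruit SIN3 and histone deacetylases, and MGA binds MAX as the scaffold of the Polycomb complex PRC1.6. In NUT carcinoma the fusion protein is known to keep MYC expressed, and in stratified epithelia MXD1 is known as a gene of differentiating cells.

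Since the products of these genes act through E-boxes, the promoters of the members themselves were searched for CACGTG, which reads the same on either strand. Windows of 300 bases, from 250 before to 50 after each start site on GRCm38, were read from RefSeq. Of 9 members with a window, 3 held the sequence, against 8.09% of 27025 genes with a window and 7.15% of 32851 windows. The windows of Mycn, Mycl, Mxd1, Mxd3, Mxi1 and Mga did not hold these letters, and Myc had no window. The 3 that held it, Max, Mnt and Mxd4, were also the members with the lowest adjusted p between oral KO and WT tumors. These were 0.0587, 0.0395 and 0.067 from edgeR, so only Mnt was under 0.05. With protein-coding genes alone no member was under 0.05. There Mga, without the sequence, came before Mxd4 and Max (adjusted p = 0.11, 0.15 and 0.153 from edgeR). The 3 sites are given in the sense of the gene with 10 bases on either side, and capitals mark the E-box.
Max, chr12:76962236-76962261, minus strand: tgagcccggtCACGTGttagggggcc
Mnt, chr11:74830791-74830816, plus strand: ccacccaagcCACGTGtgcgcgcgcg
Mxd4, chr5:34187914-34187939, minus strand: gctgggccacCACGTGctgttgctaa
Counted from the start site, the first base of the E-box lay at -3 in Max, at -123 in Mnt and at -219 in Mxd4. A match in these windows is a description of the sequence and says nothing of binding in these tumors. A link between the sequence and the KO difference was not tested.

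Library totals ran from 29394258 to 40420228 estimated counts for oral WT, from 40964533 to 46134830 for pancreatic WT and from 89562790 to 120482829 for pancreatic KO, and were 11735315 and 20432164 for oral KO. The share of counts in protein-coding genes was lowest in the oral KO libraries, 59.5% and 84.5%, against 85.1% to 91.7% elsewhere. Sox2 had 410 or more counts in each WT tumor and at most 2 in each KO tumor, which matched every genotype label. Nutm1, a testis gene outside these tumors and the partner in the fusion, was at 41.0 to 64.3 CPM (counts scaled to library size) in all 13, and the squamous markers Krt5, Krt14 and Trp63 were present in each. A list of 14 skeletal muscle markers summed to 2978 and 5371 CPM in the oral KO tumors and to 564 CPM in oral WT replicate 4, against at most 17.3 CPM in the others. Nothing in the labels says which tumors came from separate animals, so that p-values measure the spread between these tumors.

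Levels of different genes were compared as CPM per kilobase of union exon length (CPM per kb). Myc (chromosome 15, from 61985391 to 61990374 on GRCm38, plus strand) had the highest level of the network in each of the 4 groups. It stood at 60.0 ± 11.2 (SD, n = 4) in oral WT, 39.8 ± 7.08 (SD, n = 2) in oral KO, 105.1 ± 14.4 (SD, n = 4) in pancreatic WT and 117.5 ± 10.7 (SD, n = 3) in pancreatic KO tumors. Of 21897 protein-coding genes, 513, 481, 360 and 285 had a higher level per kb in these groups. In every group, all values of Myc lay above all values of the gene next in order.

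The gene next to Myc differed by group. In oral WT tumors it was Max, the obligate partner, at 24.6 ± 3.41 CPM per kb (SD, n = 4), followed by Mxd4 at 13.7 ± 2.47, Mnt at 12.5 ± 1.52, Mxd1 at 10.3 ± 5.17 and Mga at 10.2 ± 1.67. The ranges of these last 4 overlapped from neighbour to neighbour, while Max lay apart from Mxd4. In pancreatic WT tumors Mxd1 came after Myc, at 50.9 ± 16.7 CPM per kb (SD, n = 4), and its range overlapped that of Max, at 33.5 ± 0.744. Mycl, at 2.60 to 4.58 CPM per kb over the 4 group means, Mxd3, at 1.56 to 2.5, and Mycn, at 0.156 to 0.613, took the last 3 places in each group. Neighbours did not differ beyond their spread between Mycl and Mxd3 in oral WT, oral KO and pancreatic KO tumors, but Mycn lay below Mxd3 in all 4 groups. The order depends on the length used: per kb of the longest transcript, Max was at 45.6 ± 6.32 and Myc at 69.7 ± 13 in oral WT tumors (SD, n = 4), and their ranges overlapped, as did those of Myc and Mxd1 in pancreatic WT tumors.

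**Figure D1:**
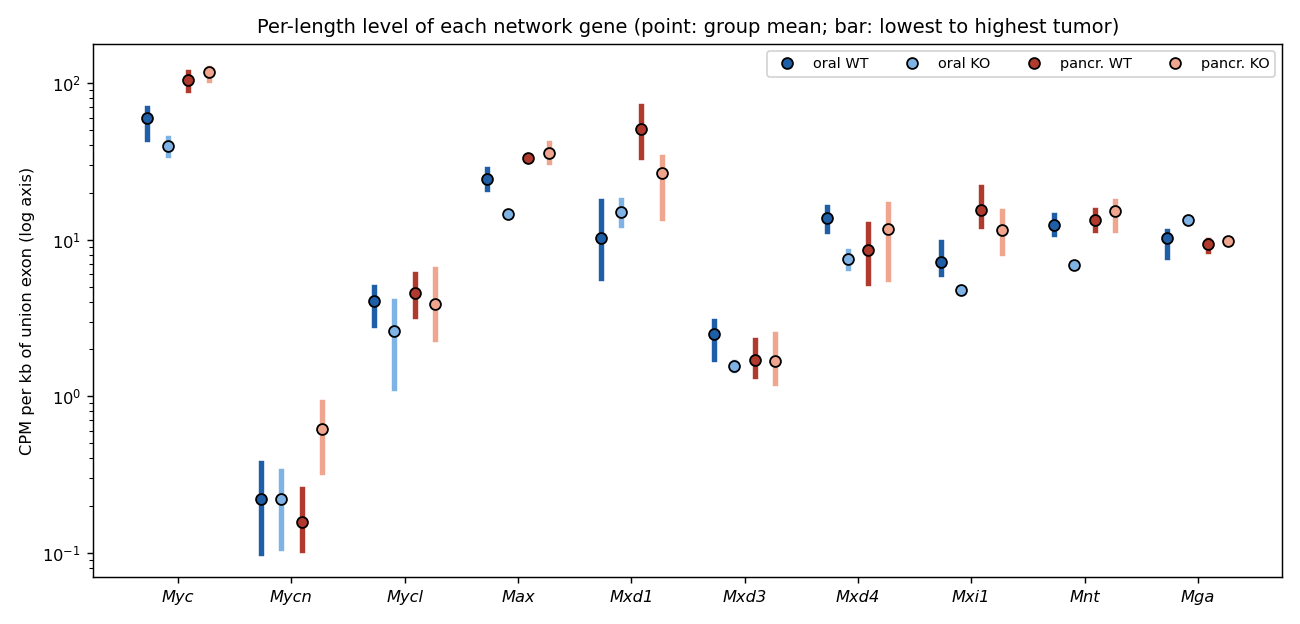
Level of each network gene per length. The y axis gives CPM per kb of union exon on a log scale, points are group means and bars run from the lowest to the highest tumor of the group. Myc is highest in all 4 groups, with means from 39.8 to 117.5, and Mycn is lowest, with means from 0.156 to 0.613; Mxd1 lies next to Myc in pancreatic WT tumors, at 50.9.

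Myc supplied nearly all of the RNA of the 3 MYC genes. Its share of their summed level per kb was 88.7% to 97.9% over the 13 tumors. Mycl, first known from lung cancer, had 116 to 3012 counts, and Mycn, first known from neuroblastoma, had 9 to 270. The retrogene Mycs had 0 counts in all 13 tumors, which allows at most 0.0249 to 0.256 CPM by tumor, counting error alone considered. The share of each member's 31-base sequences that occur in another gene was 0% for Myc, Mnt and Mxd1 and at most 1.28%, in Mga, so that reads of these genes are largely their own.

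The comparison of oral with pancreatic WT tumors asks how the network differs between sites with Sox2 in place. Of the 10 members, 4 passed an adjusted p under 0.05 in edgeR's quasi-likelihood test, Mxd1, Mxi1, Myc and Max, and all 4 were lower in oral tumors. Over all 23164 genes tested, 23.7% passed, and 11.6% of the genes tested passed in this direction. The same 4 genes were those whose oral values all lay below the pancreatic ones, which held for 13.8% of all genes. The median log2 difference of the 10 members was -0.14, against 0.00 over all genes.

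Mxd1, the MXD gene of differentiating epithelium, stood at 54.7, 73.4, 40.5 and 124 CPM in oral WT replicates 1 to 4. In pancreatic WT replicates 1 to 4 it stood at 504, 404, 294 and 238 CPM. The highest oral tumor was below the lowest pancreatic one. The difference was -2.30 on the log2 scale (standard error 0.38, adjusted p = 0.00416 from edgeR), 4.92-fold lower in oral tumors. Beside it, 13 markers of keratinocyte differentiation summed to 1167 to 7517 CPM in oral WT and 4286 to 8699 CPM in pancreatic WT tumors, with 3 of 13 markers passing lower in oral tumors and none at 0. Within the oral WT group, the tumor with the highest Mxd1, replicate 4, also had the highest marker sum, 7517 CPM. That sum was within the pancreatic WT range, while its Mxd1, 124 CPM, was below every pancreatic WT value. Pancreatic WT replicate 4, with Mxd1 at 238 CPM, had a lower marker sum, 4286 CPM. The part of differentiated cells in the difference of Mxd1 was not tested.

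Myc measured 178, 166, 119.5 and 188 CPM in the 4 oral WT tumors. It measured 259, 323, 245 and 315 CPM in the 4 pancreatic WT tumors. The groups did not overlap, and oral WT replicate 3 was the lowest of all 8 tumors. Myc was lower in oral tumors by a log2 difference of -0.81 (standard error 0.17, adjusted p = 0.00968 from edgeR), a 1.75-fold difference.

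Mxi1, which encodes a further MAX-binding repressor, was at 43.2, 41.3, 44.8 and 66.4 CPM in oral WT and at 96.4, 147, 84.0 and 93.4 CPM in pancreatic WT tumors. Its groups did not overlap either, with pancreatic WT replicate 2 well above the rest. The log2 difference was -1.10 (standard error 0.22, adjusted p = 0.00785 from edgeR). Max was at 75.5, 81.5, 95.0 and 102 CPM in oral WT tumors, and its 4 pancreatic WT values were within 117 to 123 CPM. The difference of Max was the smallest of the 4, -0.44 on the log2 scale (standard error 0.12, adjusted p = 0.0267 from edgeR), and it passed in 9 of 17 alternative fits, in which the adjusted p ran from 0.0146 to 0.0795. Mxd1, Mxi1 and Myc passed in 17 of 17.

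Mxd4, an MXD gene linked to quiescent and differentiated cells, did not pass, at 116 ± 20.95 CPM (SD, n = 4) in oral WT and 72.6 ± 25.9 CPM in pancreatic WT tumors (log2 difference 0.68, adjusted p = 0.0794). Mxd3, the MXD gene of proliferating cells, had a log2 difference of 0.56 and an adjusted p of 0.176. Mnt, Mga, Mycl and Mycn had log2 differences of -0.09, 0.12, -0.18 and 0.50, and their groups overlapped. Along with these genes, 9 fibroblast markers summed to 8746 to 19160 CPM in oral WT and 1163 to 2262 CPM in pancreatic WT tumors, with 8 of 9 passing higher in oral tumors, and 10 basal keratinocyte and NUT carcinoma markers summed to 5693 to 11030 and 13655 to 23703 CPM, with 6 of 10 passing lower. None of these markers was at 0, and their part in the differences of the network genes was not tested. In RNA of whole tumors, fewer cells of a type and less RNA per cell cannot be told apart.

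**Figure D2:**
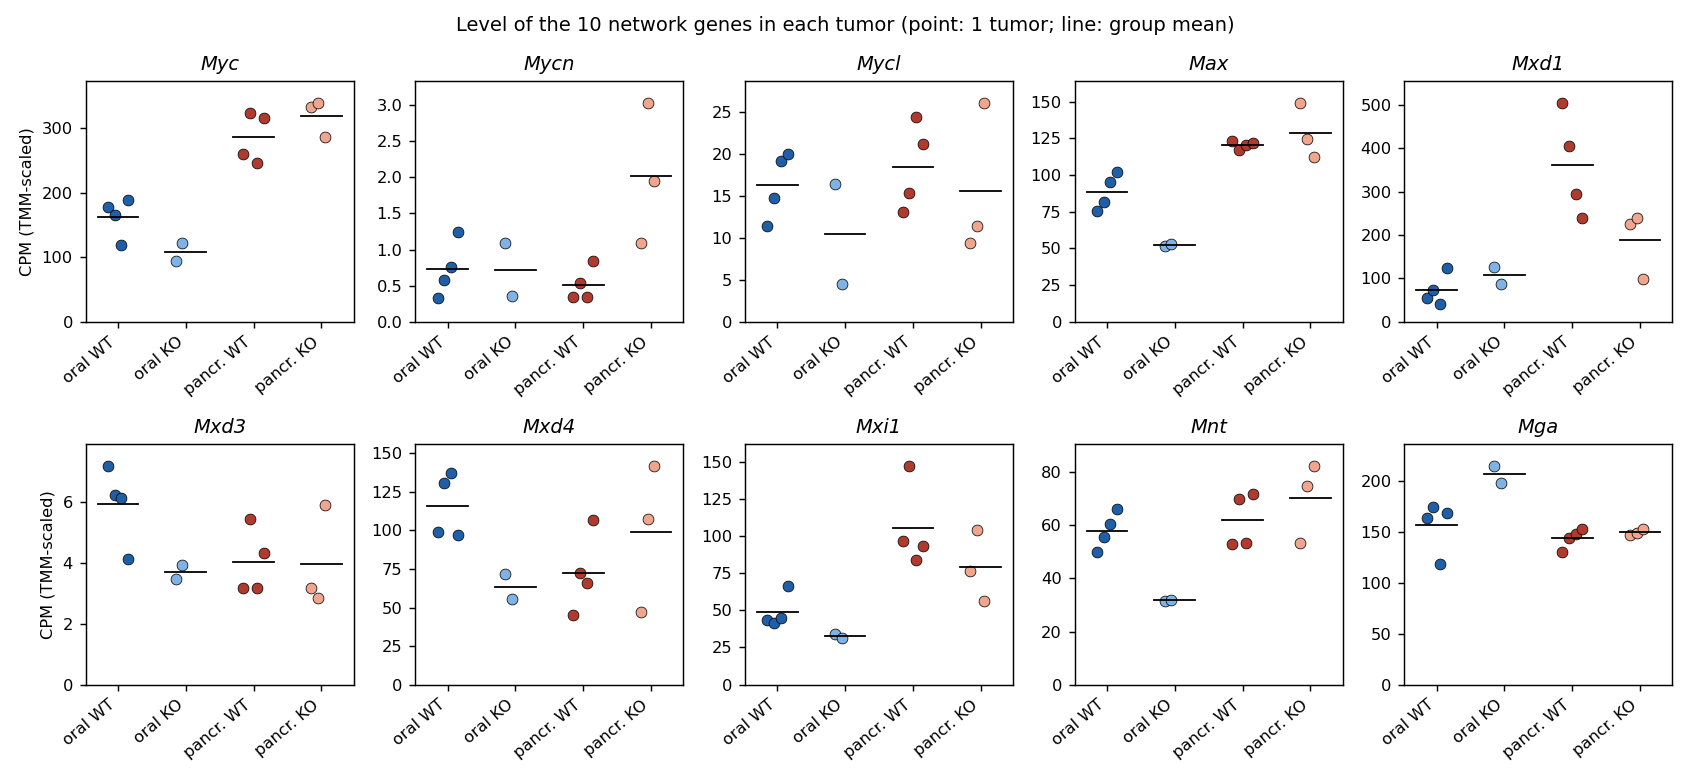
Level of the 10 network genes in each tumor. Each panel gives CPM after TMM scaling on the y axis for 1 gene, with 1 point per tumor and a line at the group mean, and each panel has its own range from 0. The oral WT points of Myc, Max, Mxd1 and Mxi1 lie below all pancreatic WT points, and the 2 oral KO points of Mnt, 31.7 and 31.9 CPM, lie below all 4 oral WT points.

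In the oral tumors, KO was compared with WT to ask whether loss of Sox2 moved the network. Only Mnt passed, lower in KO tumors, so 1 of 10 members against 13.8% of the 22342 genes tested and 4.58% in this direction. Mnt encodes a broadly expressed repressor that pairs with MAX in cycling and resting cells. Its levels were 49.8, 55.5, 60.4 and 66.4 CPM in WT, and 31.7 and 31.9 CPM in KO. Both KO values lay below all WT values, and the log2 difference was -0.79 (standard error 0.19, adjusted p = 0.0395 from edgeR). With protein-coding genes alone the log2 difference was -0.60 (adjusted p = 0.107) and did not pass. The call was also lost when any WT tumor was left out. Over all genes, 36 to 2893 were called in those fits, against 3081 with every oral tumor. Leaving out each of the 6 tumors in turn gave log2 differences of Mnt from -0.85 to -0.71.

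Max, at 51.6 and 53.2 CPM in KO, was below all 4 WT values, with a log2 difference of -0.68 (standard error 0.20, adjusted p = 0.0587 from edgeR). Mxd4 was at 71.5 and 55.7 CPM in KO against 96.9 to 137 CPM in WT tumors, a log2 difference of -0.79 (standard error 0.24, adjusted p = 0.067). Mxi1 and Mxd3 were also below all WT values, with log2 differences of -0.51 and -0.59 and adjusted p of 0.185 and 0.259. With Mnt, 5 members thus lay wholly below WT, which 25.5% of all genes did, noncoding genes included. Such a share over protein-coding genes alone was not computed. Scaled to the protein-coding total, Mxd3 overlapped WT, with KO at 4.62 and 5.19 CPM and the lowest WT tumor at 4.71 CPM.

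Myc was at 94.5 and 122 CPM in KO, and the second of these exceeded the lowest WT value. Its log2 difference was -0.51 (standard error 0.23, adjusted p = 0.151). Mga, the PRC1.6 scaffold, was the member that lay wholly above WT, at 215 and 197 CPM against 118 to 174 CPM (log2 difference 0.48, adjusted p = 0.131), as did 22.4% of all genes. Mxd1 was at 126 and 87.4 CPM in KO and reached 124 CPM in WT tumors, a log2 difference of 0.64 with an adjusted p of 0.323. Mycl parted the 2 KO tumors, at 16.5 and 4.52 CPM, and Mycn did too, at 1.09 and 0.351 CPM.

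The median log2 difference of the 10 members in oral tumors was -0.54, against 0.00 over all genes and -0.21 over protein-coding genes. Fitted with protein-coding genes alone, Mnt and Max stood at -0.60 and -0.49, Mxd4 at -0.59 and Myc at -0.33, Mga at 0.67 and Mxd1 at 0.81, none with an adjusted p under 0.05. Of the 10 members, Mycn was the one whose sign turned under this scaling, from -0.01 to 0.19. The skeletal muscle markers, of which 1 of 14 passed higher in oral KO tumors, and the keratinocyte differentiation markers, of which 1 of 13 did, summed to 5371 and 7992 CPM in KO replicate 1 and to 2978 and 2851 CPM in KO replicate 2, so that replicate 1 was the higher in both. Of 9 fibroblast markers, 2 passed lower in oral KO tumors, Dcn (-3.40) and Lum (-2.09), while their sum was 9456 and 9537 CPM in KO and 8746 to 19160 CPM in WT tumors. No marker of these lists was at 0, and their part in the oral values was not tested.

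In the pancreatic tumors, KO was compared with WT in the same way, and 0 of 10 members passed, against 0.706% of 24653 genes. At an unadjusted p under 0.05 there were 2, Mycn and Mxd1, against 3916 of the 24653 genes. DESeq2 called 1, Mycn, against 1711 of the 24653. Myc, at 333, 339 and 286 CPM in KO and 245 to 323 CPM in WT tumors, had a log2 difference of 0.17 (standard error 0.14, adjusted p = 0.599 from edgeR). Max, Mga and Mnt had log2 differences of 0.10, 0.07 and 0.19 with standard errors of 0.11, 0.10 and 0.19. The median over the members was 0.09, against 0.02 over all genes.

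Mycn was at 0.341, 0.538, 0.342 and 0.838 CPM in the pancreatic WT and at 1.08, 3.03 and 1.95 CPM in the pancreatic KO tumors. Every KO value was above every WT value, which held for 6.8% of all genes. Its counts were 13 to 34 in WT and 124 to 270 in KO tumors, the latter in libraries of 89562790 counts or more. The log2 difference was 1.98 (standard error 0.46, adjusted p = 0.099 from edgeR) and missed the threshold. DESeq2 gave the same log2 difference with an adjusted p of 0.00245, and over all alternatives the adjusted p reached 0.235. Even so, Mycn stayed the lowest member per kb in pancreatic KO tumors.

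Mxd1 was at 226, 239 and 97.6 CPM in the pancreatic KO tumors, against 238 CPM in the lowest of the 4 pancreatic WT tumors. The groups met at that value, with KO replicate 2 just above it. The log2 difference was -0.94 (standard error 0.37, adjusted p = 0.274 from edgeR). Beside it, the 13 keratinocyte differentiation markers summed to 2464, 1688 and 589 CPM in the KO and 4286 to 8699 CPM in the WT tumors, with 2 of 13 passing lower in KO tumors, all 13 lower in sign and none at 0. KO replicate 3, with the lowest marker sum of all 13 tumors, was also the pancreatic tumor with the lowest Mxd1, and it was the tumor in which 10 pancreatic acinar markers summed to 293 CPM. What these markers contribute to the values of Mxd1 was not tested. Mxd4 in the same 3 tumors was at 47.2, 108 and 142 CPM and Mxi1 at 76.6, 104 and 56.3 CPM, each overlapping WT.

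**Figure D3:**
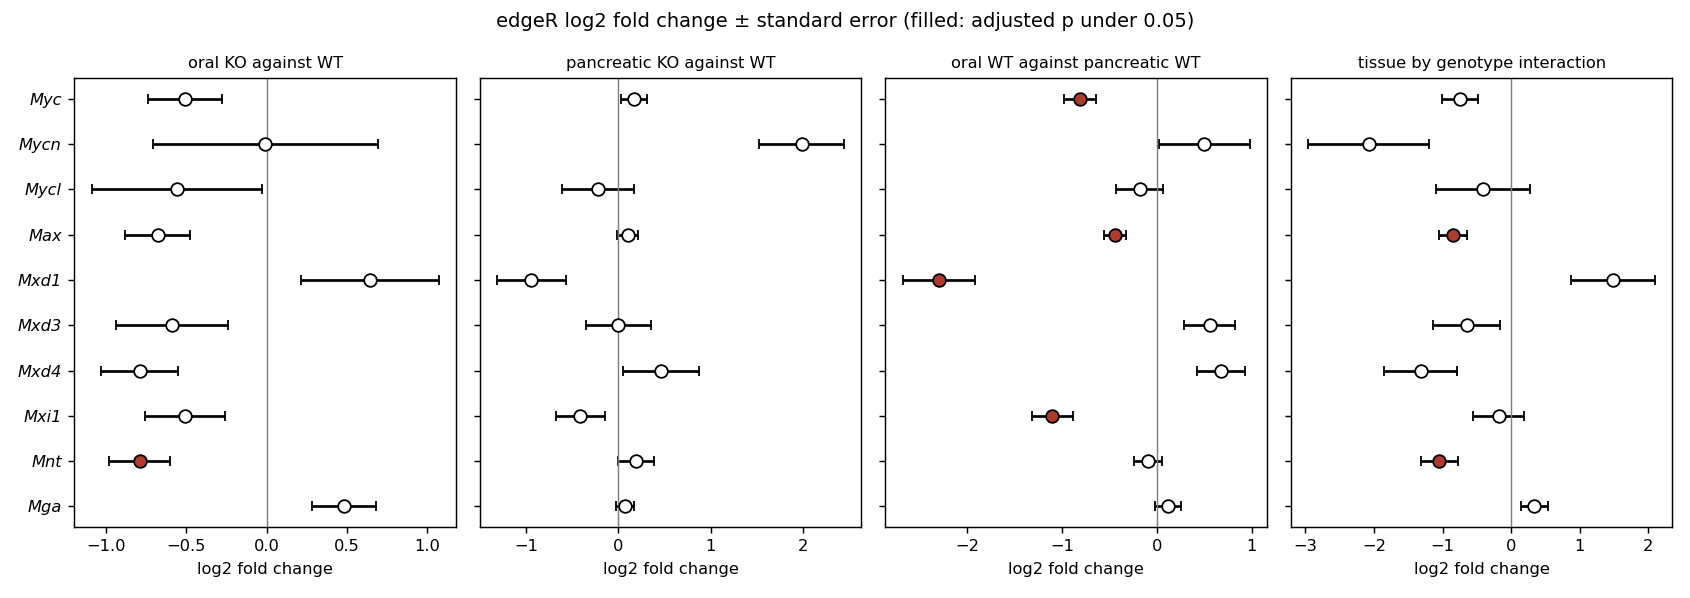
Log2 fold change of each network gene in 4 comparisons. Points are edgeR estimates, bars are ± 1 standard error, filled points have an adjusted p under 0.05, and each panel has its own x axis range; oral WT against pancreatic WT is oral minus pancreatic, and the interaction is the oral minus the pancreatic KO difference. Filled points are Mnt (-0.79) in oral KO, none in pancreatic KO, Mxd1, Mxi1, Myc and Max between sites, and Mnt (-1.05) and Max (-0.85) in the interaction.

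Whether the KO difference itself differed between sites was tested as the interaction of tissue and genotype in 1 fit of all 13 tumors, which uses the same tumors as the comparisons above. Mnt and Max passed, both negative, so 2 of 10 members against 15.3% of 25836 genes and 7.63% in this direction. The oral KO difference was lower than the pancreatic one by 1.05 on the log2 scale for Mnt (interaction -1.05, standard error 0.27, adjusted p = 0.0248 from edgeR) and the interaction of Max was -0.85 (standard error 0.20, adjusted p = 0.0194). Mxd1 had the largest positive interaction, 1.49 (standard error 0.61, adjusted p = 0.113), with KO values above the WT mean in oral and below it in pancreatic tumors. Mycn (-2.08, adjusted p = 0.118), Mxd4 (-1.32, adjusted p = 0.105) and Myc (-0.75, adjusted p = 0.0693) did not pass. The median over the members was -0.70, against -0.03 over all genes and -0.28 over protein-coding genes. With protein-coding genes alone 0 of 10 passed, Mnt at -0.85 (adjusted p = 0.0584) and Max at -0.65 (adjusted p = 0.0702). Max passed in 13 of 13 fits that left out 1 tumor, and Mnt in 8 of 13.

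The balance between MYC and its antagonists was described by ratios of levels per kb within each tumor, which do not depend on library size. The ratio of Myc to Mxd1 was 8.46, 5.89, 7.69 and 3.95 in oral WT tumors and 1.95 and 3.62 in oral KO tumors. In pancreatic WT tumors it was 1.34, 2.08, 2.17 and 3.45, and in pancreatic KO tumors 3.83, 3.70 and 7.62. KO tumors lay below WT at the oral site and above WT in the pancreas, without overlap in either. The nearest KO and WT tumors were at 3.62 and 3.95 at the oral site and at 3.70 and 3.45 in the pancreas. Of all single genes tested, 48% did not overlap between KO and WT in oral tumors and 15.6% in pancreatic tumors. Such a share was not computed for ratios. The summed MYC genes over the summed MXD genes gave 1.07 to 1.97 in pancreatic WT and 2.04 to 2.72 in pancreatic KO tumors, also without overlap, whereas oral WT, at 1.58 to 2.37, overlapped oral KO, at 1.2 and 1.83. The ratio of Myc to Max was within 1.66 to 3.65 in all 13 tumors and overlapped between all groups. These ratios are descriptions, with no test.

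The make-up of the MXD genes also parted the sites, in WT tumors only. Mxd1 made up 18.4% to 43.4% of the summed MXD level per kb in oral WT tumors and 54.5% to 77.5% in pancreatic WT tumors. With 54.6% and 49.2%, both oral KO tumors had a higher share than any oral WT tumor. The pancreatic KO tumors were at 63.8%, 53.6% and 33.4%, the last within the oral WT range. The ratio of Mxd1 to Mxd4 was 0.354 to 1.54 in oral WT, 2.12 and 1.88 in oral KO, 2.67 to 13.5 in pancreatic WT and 0.824 to 5.75 in pancreatic KO tumors. Oral WT and pancreatic WT did not overlap in it, and pancreatic KO replicate 3, at 0.824, was the pancreatic tumor that fell within the oral WT range.

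**Figure D4:**
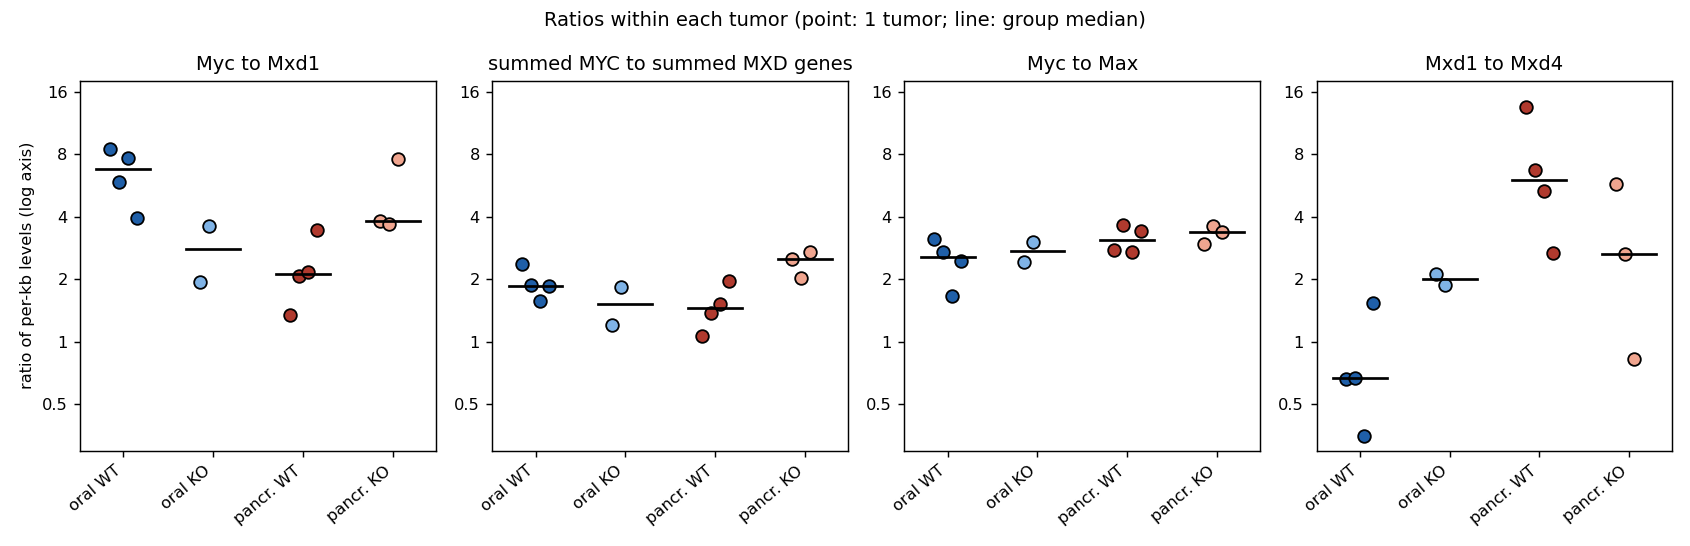
Ratios of levels per kb within each tumor. Each panel gives 1 ratio on a shared log axis, with 1 point per tumor and a line at the group median. The Myc to Mxd1 ratio is 3.95 to 8.46 in oral WT and 1.34 to 3.45 in pancreatic WT tumors, and the Myc to Max ratio stays within 1.66 to 3.65 in all tumors.

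Among the close relatives, Mlx, the MAX-like partner of the glucose sensors MLXIP and MLXIPL, was lower in oral than in pancreatic WT tumors, at 23.7 ± 3.26 and 39.4 ± 0.947 CPM (SD, n = 4 each), a log2 difference of -0.73 (standard error 0.13, adjusted p = 0.00527 from edgeR). Mlxipl rose in oral KO tumors, to 5.76 and 9.13 CPM from 0.950 to 3.03 CPM in WT (log2 difference 1.97, standard error 0.52, adjusted p = 0.0465). Of the 9 relatives tested, Usf2, an E-box factor outside the network, also passed in oral tumors, lower in KO at -0.99 (adjusted p = 0.0374). This made 2 of 9, against 13.8% of all genes. With protein-coding genes alone Mlxipl was at 2.15 (adjusted p = 0.0844) and Usf2 at -0.79 (adjusted p = 0.0911), and neither passed. In pancreatic tumors 0 of the 9 passed, against 0.706% of all genes. An unadjusted p under 0.05 was reached by 1, against 3916 of all 24653 genes, and DESeq2 called 0, against 1711. Bmyc, a short MYC relative without the DNA-binding region, had an interaction of -1.21 (standard error 0.36, adjusted p = 0.0427), which did not pass with protein-coding genes alone (-1.01, adjusted p = 0.0853). It was at 8.65 to 10.7 CPM in oral WT, 4.76 and 8.15 CPM in oral KO, 5.67 to 9.61 CPM in pancreatic WT and 11.02 to 13.9 CPM in pancreatic KO tumors.

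Pvt1 is the long noncoding gene downstream of Myc on chromosome 15 (from 62037986 to 62378096, plus strand). It was at 8.32, 7.73, 8.67 and 9.07 CPM in oral WT and at 14.0 and 23.5 CPM in oral KO tumors, against 7.14 to 9.39 CPM in all 7 pancreatic tumors. The 2 oral KO tumors stood above the other 11, while their Myc values, 94.5 and 122 CPM, overlapped those of WT. Of all genes, 22.4% lay wholly above WT in oral KO tumors, and 9.21% passed higher there. The protein-coding share was lowest in these 2 libraries, 59.5% and 84.5%, and its part in the values of Pvt1 was not tested. The oral log2 difference was 1.22 (standard error 0.27, adjusted p = 0.0314 from edgeR), the pancreatic one 0.00 (standard error 0.18), and the interaction 1.16 (standard error 0.31, adjusted p = 0.0285). Leaving out 1 oral tumor at a time gave oral log2 differences from 0.84 to 1.53, of which 1 of 6 passed. Of all genes, 36 to 2893 were called when a WT tumor was left out, against 3081 with every oral tumor. As a noncoding gene, Pvt1 was not in the fit of protein-coding genes alone. In a list of 10 genes around Myc, 1 passed in oral tumors, Pvt1, against 13.8% of all genes. Between sites, 6 of the 10 passed, against 23.7% of all genes, 5 lower in oral tumors, among them Fam84b (-0.80) and the adenylate cyclase gene Adcy8 (-3.17), and Asap1 was higher (1.19).

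The RNA of genes whose proteins work with the network was followed by 4 lists chosen by function. In oral tumors, 2 of 18 MYC coactivators passed in opposite directions, against 13.8% of all genes called. Ruvbl1, an ATPase of the TIP60 complex, was lower in KO tumors (35.3 ± 4.31 CPM in WT, n = 4, and 14.1 ± 4.25 CPM in KO, n = 2, SD, log2 difference -1.25, adjusted p = 0.0283 from edgeR), and Trrap, the scaffold that MYC binds, was higher (144 ± 26.1 and 257 ± 2.06 CPM, log2 difference 0.91, adjusted p = 0.0319). The deacetylase genes Hdac1 (-0.80) and Hdac2 (-0.64) passed lower among 14 corepressor genes of MXD and MNT, against 4.58% of all genes called lower, and the same 2 genes were those that passed among 13 genes of PRC1.6. Among 18 genes of MYC turnover, the deubiquitinase gene Usp22 passed, at -0.69. With protein-coding genes alone, 0 genes of these 4 lists passed in oral tumors. In pancreatic tumors edgeR called 0 of 140 tested genes of the 8 lists followed here, the relatives, locus and targets included, against 0.706% of all genes. An unadjusted p under 0.05 was reached by 19 of the 140, against 3916 of all 24653 genes. DESeq2 called 7 of the 140, against 1711 of all 24653. The medians there were 0.12 for coactivators, 0.04 for corepressors, 0.07 for PRC1.6 and 0.00 for turnover.

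Between sites, where 23.7% of all genes passed, 1 of 18 coactivators, 1 of 14 corepressors and 2 of 13 PRC1.6 genes did. Of the coactivators, Ccnt1, the cyclin of the elongation factor P-TEFb, passed at -0.36, and of the corepressors Suds3 at -0.59. Of PRC1.6, Rybp passed lower (-0.54) and L3mbtl2 higher (0.55) in oral tumors. Of the turnover genes, 3 of 18 passed: Ppp2r5a (-0.53), Fbxw7, the ubiquitin ligase subunit that recognises phosphorylated MYC (-0.49), and Trim32 (0.76).

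A list of 45 genes known to be induced by MYC was followed across the same comparisons. In oral tumors 8 of 45 passed, all lower in KO tumors, against 13.8% of all genes called and 4.58% called lower, and the list median was -0.56 against -0.21 over protein-coding genes. The lowest adjusted p belonged to Pa2g4, a growth regulator (263 ± 65.1 CPM in WT, n = 4, and 98.5 ± 14.2 CPM in KO, n = 2, SD, log2 difference -1.34, adjusted p = 0.0287 from edgeR), Tfap4, an E-box factor (-1.35, adjusted p = 0.0321), and Apex1, a DNA repair endonuclease (-1.27, adjusted p = 0.0347). With protein-coding genes alone 0 of 45 passed and the median was -0.36, and without oral KO replicate 1 in addition the median was -0.19. In pancreatic tumors 0 of 45 passed, and the median was 0.09. An unadjusted p under 0.05 was reached by 4 and DESeq2 called 1, against 3916 and 1711 of all 24653 genes in these tumors. There Slc7a5, the amino acid transporter, was at 98.4 ± 5.42 CPM in KO (n = 3) and 193 ± 68.1 CPM in WT tumors (SD, n = 4), a log2 difference of -0.96 with an adjusted p of 0.132.

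Between oral and pancreatic WT tumors, 5 of the 45 passed, against 23.7% of all genes. The 2 that were lower in oral tumors encode glycolytic enzymes, Ldha (490 ± 120 and 1066 ± 161 CPM, SD, n = 4 each, log2 difference -1.12, adjusted p = 0.00505 from edgeR) and Hk2 (-1.75, adjusted p = 0.0165). The other 3 were higher, among them Utp20, of small subunit ribosome assembly (0.59, adjusted p = 0.0181), and the list median was 0.17. In the interaction 18 of 45 passed, all negative, against 15.3% of all genes called and 7.63% called negative, with Pa2g4 (-1.67), Srm (-0.96) and Fbl (-1.58) first. This count was 5 with protein-coding genes alone, where 1096 of all 17462 genes passed. Leaving out oral KO replicate 1 as well leaves 1 oral KO tumor, so calls of that fit are not given for this list. Of 37 of these genes with a promoter window, 14 (37.8%) held CACGTG, against 8.09% of all genes.

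Of 18 genes known to be repressed by MYC, 2 passed in oral tumors, against 13.8% of all genes, both lower in KO: Cdkn1c, an inhibitor of cyclin-dependent kinases (58.2 ± 15.6 CPM in WT, n = 4, and 8.86 ± 3.05 CPM in KO, n = 2, SD, log2 difference -2.64, adjusted p = 0.0183 from edgeR), and Klf6 (-1.10, adjusted p = 0.046). With protein-coding genes alone 0 of 18 passed in oral tumors, Cdkn1c at -2.45 (adjusted p = 0.0595). Between sites 10 of 18 passed, 4 higher and 6 lower in oral tumors, against 23.7% of all genes. Cdkn1c (3.00) and the collagen gene Col1a2 (2.70) were higher and Klf6 (-1.76) was lower. Col1a2 is a product of fibroblasts, whose markers were given above with the difference between sites. It is itself among those markers, as is Pdgfrb, another gene of this list. In pancreatic tumors 0 of 17 tested passed, and the median was -0.19, with Gadd45b, a stress response gene, at -1.46 (adjusted p = 0.0735 from edgeR). An unadjusted p under 0.05 was reached by 7 of the 17, against 3916 of all 24653 genes, and DESeq2 called 3, against 1711.

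**Figure D5:**
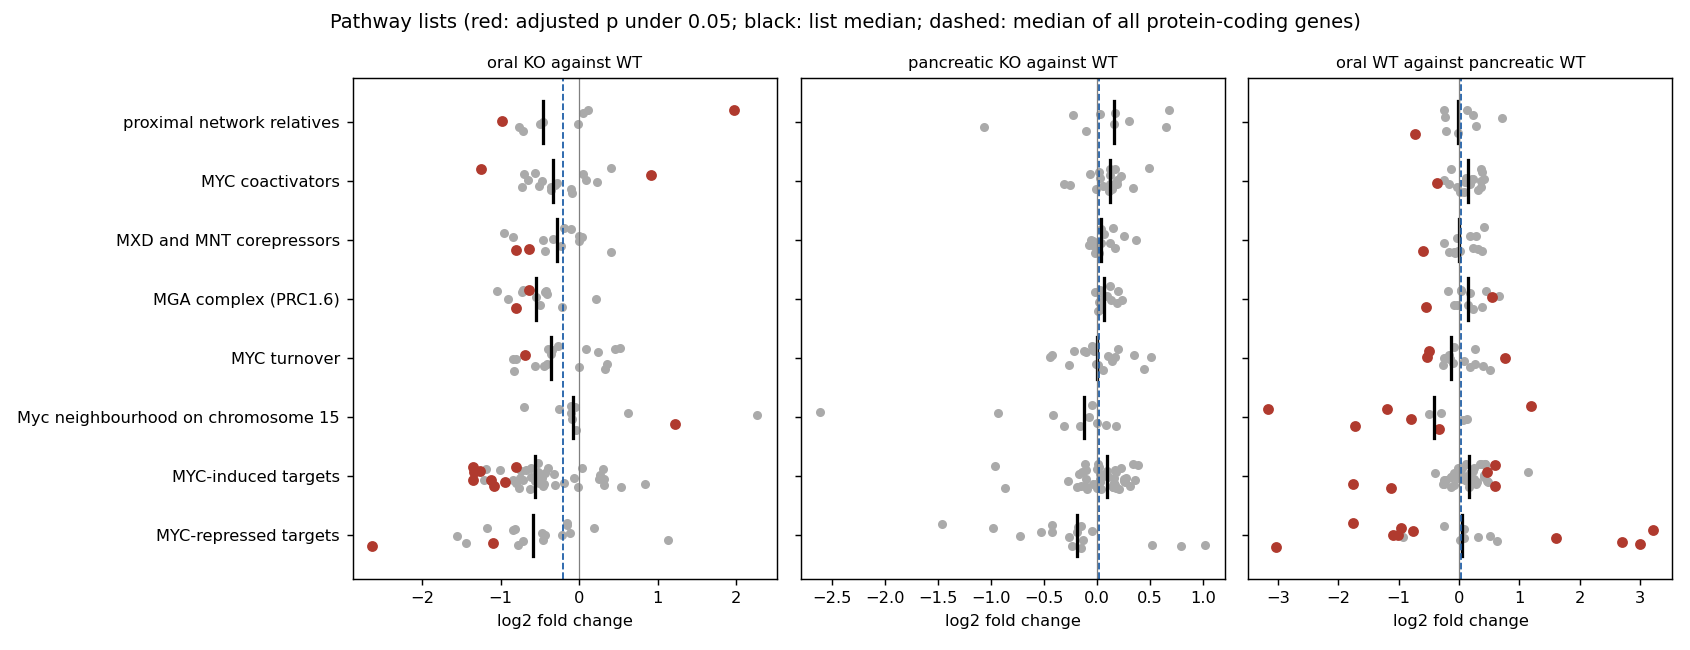
Log2 fold changes of the genes of 8 lists in 3 comparisons. Each point is 1 gene, red points have an adjusted p under 0.05 in edgeR, black bars are list medians and the dashed line is the median of all protein-coding genes; each panel has its own x axis range. In oral KO tumors 8 of 45 MYC-induced targets are red, all below 0, in pancreatic KO tumors no point is red, and between sites 10 of 18 MYC-repressed targets are red on both sides of 0.

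The protein-coding genes most like Myc over the 13 tumors were found by the root mean square difference of centred log2 CPM among 14162 genes with a mean of at least 1 CPM. They were Ctnna1 (0.142), Sars (0.157), Dynlt3 (0.163), Orai1 (0.167) and Mrrf (0.179), against a median of 0.691 over all genes compared. For Mycn the nearest were Prune2 (0.476), Grb14 (0.558), Palmd (0.560), Fmn1 (0.565) and Ctnnal1 (0.578), against a median of 1.03. Scaling to the protein-coding total gave the same 5 genes for each. The likeness is over tumors that share site, genotype and depth in groups, and has no test.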

How the data were processed

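Total RNA depleted of ribosomal RNA was sequenced from stranded libraries of 13 tumors. The authors trimmed reads with Trim Galore 0.6.10, checked them with FastQC 0.12.1, quantified transcripts with kallisto 0.50.0 on GENCODE M23 (GRCm38) and summed them with tximport, and they deposited estimated counts per gene without scaling. Of the values, 27.3% are not whole. Of 56085 genes, 753 have empty values. Symbols and exon lengths came from GENCODE M21, which matched 55141 identifiers and lacked 191 of those with values.

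Counts were rounded and fitted with edgeR 4.0.16 in R 4.3.3 (TMM, robust quasi-likelihood, Benjamini-Hochberg over all genes tested), keeping genes that reached 10 counts in 2 or more tumors of the fit, which all 10 members passed in every comparison. A gene was called at an adjusted p under 0.05. Standard errors are the absolute log2 difference divided by the root of the F statistic. CPM used TMM factors over all 13 tumors. DESeq2 1.42.0 was an alternative. The script was tested on simulated counts. Depth sets the precision, and limits from 3 counts cover counting error only.

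The members and all gene lists were chosen with earlier results of these data known. Named genes were the members, their close relatives and Pvt1, genes that check labels, in each list up to 3 called genes with the smallest adjusted p (or, with none called, 2 with the smallest p, of which some are not printed), and the 5 genes most like Myc and Mycn. Further marker lists were endothelial, leukocyte, islet and duct, chondrocyte, adipocyte and neural. Alternatives were DESeq2 size factors, no count filter, 10 counts in every tumor, protein-coding genes alone, no robust dispersions, 1 fit of all tumors, tumor number as a block, thinned counts and leaving out each tumor. Protein-coding genes alone without oral KO replicate 1 was added after the data were seen. Results for 1 gene of the lists are not reported here by name.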

Additional observations from a re-analysis of the deposited data

Results flagged for a closer look

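For Mga, oral WT replicate 3 stood apart from the other oral WT tumors at 118 CPM, with a gap to its nearest neighbour of 0.841 of the group's range, above Dixon's critical value for 4 tumors. Such a gap was looked for in 20 groups, and chance gives about 1 in 20. The KO difference passed the test of a difference between oral and pancreatic tumors, as an interaction in edgeR, for Max (-0.85), Mnt (-1.05), Bmyc (-1.21) and Pvt1 (1.16). The values of Max, Mnt and Bmyc did not pass with protein-coding genes alone, at -0.65, -0.85 and -1.01, and Pvt1, a noncoding gene, was not in that fit.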

How the results depend on the processing

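In oral tumors, where 1 member passed, 3 passed without the count filter, with DESeq2 and in 1 fit of all 13 tumors, and 0 with protein-coding genes alone, with tumor number as a replicate block, and with protein-coding genes alone without oral KO replicate 1. Leaving out each tumor gave 0 to 0. In pancreatic tumors, where 0 passed, DESeq2 gave 1 (Mycn) and the replicate block 2 (Mycn at 2.24, Mxd1 at -1.16), and leaving out each tumor gave 0 to 0. Between sites, 3 to 4 passed in every alternative. For the interaction, where 2 passed, protein-coding genes alone gave 0, and 0 without oral KO replicate 1 as well, and leaving out each tumor gave 1 to 3, with 1 when oral KO replicate 1 or 2, pancreatic WT replicate 3 or pancreatic KO replicate 2 or 3 was left out. The cause of these changes was not tested. Deviations of tumors with the same number correlated at 0.317 for number 1 of the pancreas and at -0.080 to 0.028 for the others. With so few tumors, these values do not decide whether the numbers pair the tumors. With tumor number as a block, calls over all genes rose from 174 to 731 in the pancreas. They fell in the other comparisons, from 3081 to 63 in oral tumors. No member that passed changed sign. Over all genes, 36 of 71 counts of calls moved by over 1.5 times, and in oral tumors 3081 fell to 27 with protein-coding genes alone. The oral comparison is limited by 2 KO tumors, the smallest libraries and their noncoding share, and Mycn by 9 to 54 counts outside the pancreatic KO tumors.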

Other observations

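Markers of further cell types were summed in each tumor. Adipocyte markers summed to 101 to 577 CPM in oral WT, 253 and 276 CPM in oral KO, 1478 to 2961 CPM in pancreatic WT and 518 to 2268 CPM in pancreatic KO tumors. In oral WT, oral KO, pancreatic WT and pancreatic KO tumors, chondrocyte markers reached 228, 73.4, 783 and 1068 CPM, and islet and duct markers 239, 82.4, 1227 and 1274 CPM. Sox9, which is in both of these lists, alone reached 220, 62.5, 728 and 868 CPM in the same order. Leukocyte markers were within 111 to 572 CPM, endothelial markers within 103 to 249.4 CPM and neural markers within 13.1 to 103 CPM in all 13 tumors.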
